A study of Mus musculus with 6 samples.

Results

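The genes described here encode the cargo of the cytotoxic granule: 8 granzymes (Gzma, Gzmb, Gzmc, Gzmd, Gzme, Gzmf, Gzmg and Gzmk), the pore-forming protein perforin (Prf1) and the granule proteoglycan serglycin (Srgn). They were chosen by gene symbol, and each of the 10 names matched exactly 1 of the 41079 genes listed in the deposited table. The values that chose them were their levels in the 6 libraries, compared between temperatures and between replicate numbers, so the differences of these 10 genes are a description and none of them counts as a test. The cells were D10, a cloned mouse helper T cell line labelled as CD4+ T cells of lymph node origin, so the study rests on a single clone. Non-acclimated cells were kept at 37 °C for 24 h and cold-acclimated cells at 26 °C for 24 h, with 3 replicates in each group. Both groups were grown in the same serum-containing medium, named as RPMI 1640 in the sample labels and as DMEM with IL-2 in the study's methods. RNA came from separate extraction batches that were counted as biological replicates, but the labels do not say which library belongs to which batch.

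Granzymes are serine proteases that are stored in lysosome-related granules and released toward a target cell. Perforin opens the way for them into the target, where granzyme B cleaves after aspartate and starts apoptosis, while granzyme A is a tryptase that kills more slowly and has roles in inflammation. Granzyme K is likewise a tryptase, and granzymes C to G are rodent proteases that lie beside granzyme B and appear in strongly activated killer cells. Serglycin carries long sulfated glycosaminoglycan chains on which the basic granzymes and perforin are packed. These proteins are best known from CD8+ T cells and natural killer cells, and some CD4+ helper T cells, above all after long culture with IL-2, make them too.

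The positions of the genes are those in the deposited table, on the GRCm39 build, and each overlapped the GENCODE gene of the same name on the same strand. The deposited and GENCODE starts were 74 bases apart for Gzmb, 109 for Gzmc and 44943 for Gzmk, and at most 16 for the other members. Gzmb lay at chr14:56496293-56499791 on the minus strand, at the end of a cluster of 15 granzyme and mast cell protease genes that spanned 320.9 kb. The other granzyme genes of that cluster, Gzmc, Gzmf, Gzmn, Gzmg, Gzmd and Gzme, began 20.7, 50.9, 87.7, 102.8, 129.7 and 141.7 kb from the start of Gzmb. Gzma at chr13:113230358-113237515 and Gzmk at chr13:113308164-113317499 formed a second pair with 70.6 kb between them. Prf1 at chr10:61133530-61140463 and Srgn at chr10:62329612-62363224 lay on the same chromosome on opposite strands. The canonical transcript had 5 exons in each of the 8 granzymes and 3 exons in Prf1 and in Srgn.

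The 250 bases of GRCm39 that precede the start in the deposited table are shown for the 4 members with the highest mean level in these cells. For contrast they are also shown for Gzmg, the member with no read in any library. Each is written 5′ to 3′ on the strand of its gene, with matches to 8 short motifs in capitals. All motifs were sought on both strands except the TATA letters, and no match overlapped another. The windows are chr14:56499792-56500041 for Gzmb, chr13:113237516-113237765 for Gzma, chr10:61133280-61133529 for Prf1, chr10:62363225-62363474 for Srgn and chr14:56397037-56397286 for Gzmg, and all but Prf1 are on the minus strand.
Gzmb: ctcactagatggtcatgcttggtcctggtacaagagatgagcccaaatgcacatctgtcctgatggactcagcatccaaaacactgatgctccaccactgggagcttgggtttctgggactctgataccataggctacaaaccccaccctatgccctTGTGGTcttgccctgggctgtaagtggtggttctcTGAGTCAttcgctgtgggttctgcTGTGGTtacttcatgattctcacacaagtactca
Gzma: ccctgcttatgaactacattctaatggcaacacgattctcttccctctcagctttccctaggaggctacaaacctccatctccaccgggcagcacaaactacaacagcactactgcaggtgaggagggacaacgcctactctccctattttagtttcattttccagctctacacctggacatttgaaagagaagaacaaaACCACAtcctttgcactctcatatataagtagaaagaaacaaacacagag
Prf1: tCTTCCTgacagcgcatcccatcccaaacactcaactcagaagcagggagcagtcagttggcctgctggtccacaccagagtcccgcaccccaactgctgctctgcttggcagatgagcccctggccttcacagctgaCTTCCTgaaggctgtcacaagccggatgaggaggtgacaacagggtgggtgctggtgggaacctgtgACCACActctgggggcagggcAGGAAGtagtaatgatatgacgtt
Srgn: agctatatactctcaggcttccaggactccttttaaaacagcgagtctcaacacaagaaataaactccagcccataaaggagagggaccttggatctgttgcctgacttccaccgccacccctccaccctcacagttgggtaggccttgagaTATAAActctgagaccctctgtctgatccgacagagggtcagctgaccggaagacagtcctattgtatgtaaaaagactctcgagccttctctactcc
Gzmg: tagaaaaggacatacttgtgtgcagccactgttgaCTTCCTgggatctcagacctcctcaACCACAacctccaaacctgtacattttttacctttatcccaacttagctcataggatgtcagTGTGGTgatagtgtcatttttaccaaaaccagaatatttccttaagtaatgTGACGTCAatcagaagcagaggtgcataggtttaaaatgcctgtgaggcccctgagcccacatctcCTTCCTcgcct

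The Runx letters TGTGGT, read on both strands, occurred in 7 of the 10 windows and in 13.8% of the 22198 windows of the same length upstream of all protein-coding genes. Gzmb held them at bases -93 to -88 and -34 to -29, counted back from the deposited start, which is 74 bases from the GENCODE start. Between these copies Gzmb held the AP-1 letters TGANTCA at -58 to -52, which occurred in 6.33% of all windows. Gzma and Prf1 each held the Runx letters on the opposite strand, at -50 to -45 and at -45 to -40. The Ets letters AGGAAG occurred in 6 of the 10 windows against 28.6% of all windows, with 3 copies in Prf1. Srgn was the only member with the TATA letters TATAAA on the gene strand, at -98 to -93, against 8.84% of all windows. The T-box letters GGTGTGA, present in 3.20% of all windows, were found only in Gzmk, whose window lies inside the longer GENCODE gene. The CRE letters TGACGTCA, present in 1.65% of all windows, were found in Gzmf and Gzmg. The STAT letters TTCNNNGAA (7.23% of all windows) and the GATA letters AGATAA (10.02%) were in none of the 10 windows. The windows of Gzmd and Gzme were 91.2% identical and those of Gzmf and Gzmg 85.2%, whereas the windows of Gzmb and Gzmc were 53.2% identical. The windows of Gzmd, Gzme, Gzmf and Gzmg, 76.8% to 91.2% identical in pairs, are not independent, and a match is a description of letters only.

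All libraries were deposited as TPM, a transcript level that is corrected for gene length, scaled to the same total in each library, and therefore comparable between genes. The steps between the TPM values gave back whole reads for the 18461 genes above 0 in 2 or more libraries, with totals of 16899628 to 31290817 reads per library. A further 2734 genes, Gzmd, Gzme and Gzmk among them, were above 0 in 1 library and have no step, so their read number is the smallest that makes the implied gene length whole. Genes were tested with limma when their mean was at least 1 TPM, which left 12227 genes. Changes are differences on the log2(TPM + 1) scale, which understates the change of low genes, and a gene was called when the Benjamini-Hochberg adjusted p was below 0.05 and the difference at least 1 in size. Gzma, Gzmb, Gzmc, Prf1 and Srgn passed the filter on low values, and Gzmd, Gzme, Gzmf, Gzmg and Gzmk did not. Libraries of the same replicate number deviated from their group means together in all 3 pairs, so levels are given by replicate number below. The correlation across genes was 0.48 to 0.51, against -0.41 to 0.02 for different numbers. Deviations cancel out within a group, so the second range is not independent of the first. CD4, the defining marker of the labelled cell type, was at 0.0351 to 1.30 TPM in the 4 libraries of replicates 1 and 2 and at 310 and 328 TPM in replicate 3, so its level went against the label in 4 of the 6 libraries. Cd3e, a chain of the T cell receptor complex, was at 476 to 874 TPM in all libraries. In bulk RNA, fewer cells of a type and less RNA per cell cannot be told apart.

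Gzmb, the executioner protease of the granule, was among the most abundant transcripts of these cells. At 37 °C its level was 13037, 9742 and 1122 TPM in replicates 1, 2 and 3, and at 26 °C it was 8064, 6260 and 776 TPM. Gzmb was thus the gene with the 3rd highest TPM in replicates 1 and 2 at 37 °C and stood at place 123 in replicate 3. At 26 °C its places were 3, 7 and 199. The read support was deep, from 11969 to 135137 reads. The means were 7967 ± 6152 TPM at 37 °C and 5033 ± 3796 TPM at 26 °C (SD, n = 3 each), so the spread within each group exceeded the difference between them and the groups overlapped. The log2 difference, 26 °C minus 37 °C, was -0.62 ± 1.15 (SE). Within each replicate number the 26 °C library was nevertheless lower, at 0.619, 0.643 and 0.691 times the 37 °C level. After median of ratios scaling, which sets the typical gene of every library equal, these paired log2 differences shrank from -0.69, -0.64 and -0.53 to -0.26, -0.11 and -0.24.

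Gzma, the other abundant granzyme, varied more between replicate numbers than Gzmb. Its level was 2444, 168 and 4.25 TPM at 37 °C and 1792, 199 and 7.34 TPM at 26 °C. Replicate 1 therefore held 576 times the level of replicate 3 at 37 °C and 244 times at 26 °C, and replicate 2 lay between them at both temperatures. In reads, replicates 1 and 3 held 14760 and 45 at 37 °C and 13661 and 66 at 26 °C. The ordering of the libraries was the same at both temperatures, and the 37 °C and 26 °C groups overlapped across nearly their whole range. The means were 872 ± 1363 TPM at 37 °C and 666 ± 980 TPM at 26 °C (SD, n = 3 each), and the log2 difference was 0.15 ± 2.49 (SE). Paired by replicate number, Gzma was lower at 26 °C in replicate 1 (log2 difference -0.45) and higher in replicates 2 and 3 (0.24 and 0.67).

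Gzmc, the cluster gene next to Gzmb, was low. Its level was 18.1, 3.92 and 2.52 TPM at 37 °C and 11.0, 6.75 and 3.61 TPM at 26 °C, from 33 to 135 reads. Replicate 1 was again the highest and replicate 3 the lowest at each temperature. The paired log2 differences were -0.68, 0.66 and 0.39, and the difference over all libraries was 0.12 ± 0.66 (SE). In every library Gzmb exceeded Gzmc by 215 to 2487 times, although the starts of the genes were 20.7 kb apart.

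The remaining granzymes were at or near the limit of counting. Gzmg had no read in any library. Gzmd had 1 read, in the 26 °C library of replicate 2, and Gzme had 1 read, in the 26 °C library of replicate 1. Gzmk, the neighbour of Gzma, had 1 read, in the 37 °C library of replicate 1. A single read in each of them implies a length of 959, 923 and 1104 bases for Gzmd, Gzme and Gzmk, beside 964, 916 and 1028 bases of the canonical transcripts. Gzmf had 6 reads at 37 °C (0.963 TPM) and 2 reads at 26 °C (0.254 TPM), all in replicate 1, and none in the other 4 libraries. A count of 0 allows up to 3 reads, so of these 5 genes only Gzmf in 1 library was above that limit, and no fold change is given for any of them. The limit covers counting error only.

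**Figure D1:**
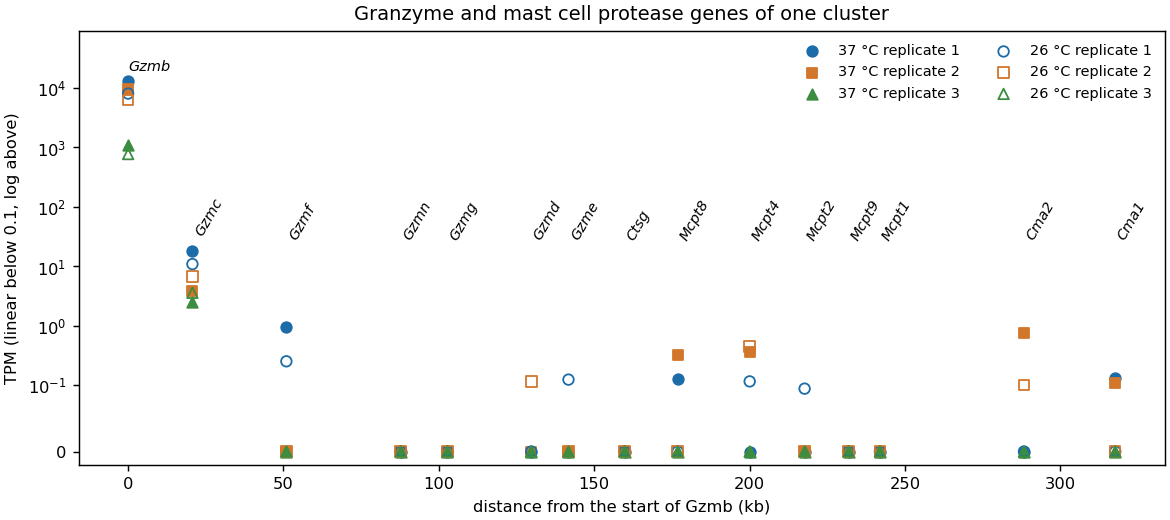
The level in TPM of each of the 15 genes of the granzyme and mast cell protease cluster (vertical axis, linear below 0.1 and logarithmic above) is plotted against the distance of its start from the start of Gzmb in kb (horizontal axis). Filled symbols are the 37 °C libraries and open symbols the 26 °C libraries, with a colour and shape for each replicate number. Gzmb lay between 776 and 13037 TPM, Gzmc between 2.52 and 18.1 TPM, and the other 13 genes below 1 TPM in every library.

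Reads of near-identical granzymes could be credited to the wrong gene. The canonical transcripts of Gzmd and Gzme were 90.0% identical over the longer of them, those of Gzme and Gzmg 88.8% and those of Gzmf and Gzmg 87.6%, whereas Gzmc shared at most 71.4% with any other granzyme. None of the 10 granzyme transcripts compared, Gzmn and Gzmm included, shared an exact stretch of 150 bases, the read length, with another. Stretches of 75 bases were shared by 6.83% of the windows of Gzmg, 5.73% of Gzmd, 4.75% of Gzme and 1.53% of Gzmn, and by none of Gzma, Gzmb, Gzmc, Gzmf, Gzmk or Gzmm. The values of Gzmd, Gzme and Gzmg are therefore the less certain ones, and Gzma, Gzmb and Gzmc had no such stretch.

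The composition of the granzyme pool followed from these levels. The 8 granzymes together amounted to 15500, 9915 and 1129 TPM at 37 °C and 9868, 6466 and 786 TPM at 26 °C in replicates 1, 2 and 3. That is 1.55%, 0.991% and 0.113% of all transcripts at 37 °C and 0.987%, 0.647% and 0.0786% at 26 °C. Gzmb made up 81.7% to 99.4% of the pool in every library. Gzma contributed 15.8% and 18.2% of it in the libraries of replicate 1, 1.70% and 3.08% in replicate 2 and 0.376% and 0.933% in replicate 3. The remaining granzymes together thus stayed a minor part.

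Prf1, which encodes the pore through which granzymes reach the target, was far less abundant than Gzmb. Its level was 46.2, 50.6 and 17.9 TPM at 37 °C and 40.4, 28.7 and 7.75 TPM at 26 °C, from 211 to 1108 reads. The lowest library of each temperature was replicate 3, and the groups overlapped. The means were 38.2 ± 17.7 TPM and 25.6 ± 16.5 TPM (SD, n = 3 each), and the log2 difference was -0.70 ± 0.63 (SE). Each 26 °C library was below its 37 °C partner, by log2 differences of -0.19, -0.80 and -1.11. After median of ratios scaling the pair of replicate 1 changed sign, to 0.23, while the pairs of replicates 2 and 3 stood at -0.29 and -0.84.

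Srgn, the packing proteoglycan, went the other way within each pair. Its level was 1342, 902 and 290 TPM at 37 °C and 1623, 1531 and 627 TPM at 26 °C, from 9684 to 38974 reads. Each 26 °C library was 1.21, 1.70 and 2.16 times its 37 °C partner in replicates 1, 2 and 3, yet the groups overlapped because replicate 3 at 26 °C was below replicates 1 and 2 at 37 °C. The means were 845 ± 528 TPM and 1260 ± 550 TPM (SD, n = 3 each), and the log2 difference was 0.72 ± 0.61 (SE). After median of ratios scaling the paired log2 differences were larger, at 0.70, 1.28 and 1.40. Srgn was thus the member whose 3 pairs were higher at 26 °C under both scalings.

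**Figure D2:**
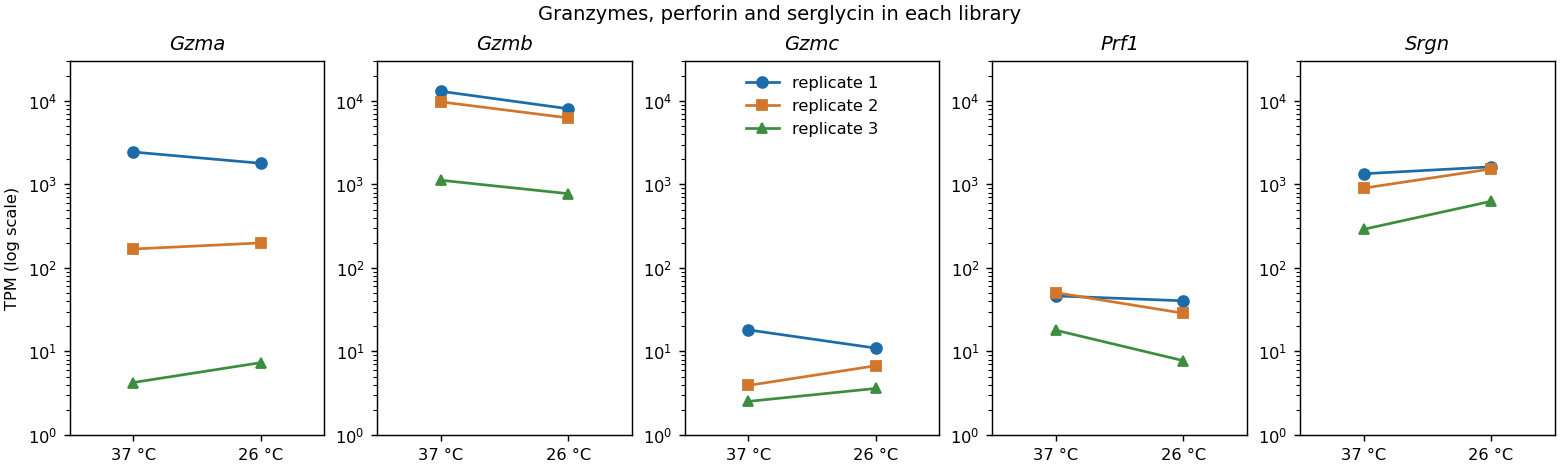
The level in TPM (logarithmic vertical axis) of Gzma, Gzmb, Gzmc, Prf1 and Srgn is plotted for the 37 °C and 26 °C libraries, with a line joining the libraries of the same replicate number. Each point is 1 library. The lines of Gzma are separated by replicate number from 4.25 to 2444 TPM, those of Gzmb, Prf1 and Srgn have replicate 3 lowest at both temperatures, and each of the 3 lines of Srgn is higher at 26 °C than at 37 °C.

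The ratios between protease, pore protein and carrier followed from these opposite paired differences. The ratio of Gzmb to Srgn in TPM was 9.72, 10.8 and 3.87 at 37 °C and 4.97, 4.09 and 1.24 at 26 °C, lower at 26 °C in each of the 3 pairs. The ratio of Srgn to Prf1 was 29.0, 17.9 and 16.2 at 37 °C and 40.2, 53.3 and 80.9 at 26 °C, higher in each of the 3 pairs. The ratio of Gzmb to Prf1 showed no such order, with 282, 193 and 62.6 at 37 °C and 200, 218 and 100 at 26 °C. The ratio of Gzmb to Gzma ran from 4.50 to 5.33 in replicate 1, from 31.4 to 57.8 in replicate 2 and from 106 to 264 in replicate 3. A ratio within a library does not depend on the scaling between libraries, and it shows unequal change of the pair rather than which gene changed. These ratios use the values that chose the members, were not compared with those of other gene pairs and are given as a description.

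Between temperatures, none of the 5 members that passed the filter was past the thresholds for a call, and in each of the 5 the groups overlapped, while 9.69% of all tested genes were higher and 31.4% lower at 26 °C without overlap. Over all tested genes, 2.63% were called upregulated at 26 °C and 16.0% downregulated, 18.6% in either direction, and 37.7% had an unadjusted p below 0.05. The split over all genes depends on the scaling, with 321 genes up and 1954 down on the deposited TPM and 840 up and 1052 down after median of ratios scaling, which moved the median log2 difference of all tested genes from -0.34 to 0.03. Set against that typical gene, the log2 differences of Srgn (0.72, or 1.13 after scaling), Gzma (0.15, or 0.55) and Gzmc (0.12, or 0.47) were above the median under both scalings. Those of Prf1 (-0.70, or -0.30) and Gzmb (-0.62, or -0.21) were below it under both. With the replicate number as a block, the log2 differences were the same and their SE fell to 0.17 for Gzmb, 0.21 for Srgn, 0.25 for Prf1, 0.25 for Gzma and 0.32 for Gzmc. All 5 stayed under the size of 1 required for a call, beside 3.75% of all genes called up and 21.9% called down in that paired fit. Gzmb and Prf1 were lower at 26 °C in each of the 3 pairs, as were 47.9% of all tested genes, and Srgn was higher in each, as were 18.2%. After median of ratios scaling this order held for Gzmb, with 32.3% of all genes, and for Srgn, with 34.6%, but not for Prf1. Nothing is read from these counts, since the temperature values had a part in choosing the members.

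Between replicate numbers, the description is the same in kind. Of the 5 members that passed the filter, the values of 4, Gzma, Gzmb, Prf1 and Srgn, lay past the thresholds for lower levels in replicate 3 than in replicates 1 and 2, beside 2.94% of all tested genes lower, 3.14% higher and 6.08% in either direction. In all 5 of them both libraries of replicate 3 were below the other 4 libraries, as in 9.54% of all tested genes, and again nothing is read from these counts, because the replicate values chose the members too. The log2 difference was -6.55 ± 0.27 (SE) for Gzma, which ranked 2 in size among the 12227 tested genes. For Gzmb it was -3.26 ± 0.18 (SE), rank 47. For Prf1 and Srgn it was -1.69 ± 0.27 and -1.62 ± 0.23 (SE), and for Gzmc -1.26 ± 0.34 (SE). With no filter on low values, Gzma, Gzmb, Prf1 and Srgn were no longer past the thresholds. Prf1 was also not past them without non-acclimated replicate 2 and without cold-acclimated replicate 1 or 2. The same held for Srgn without non-acclimated replicate 1. Replicates 1 and 2 differed from each other in Gzma (log2 difference -3.51 ± 0.31, SE, replicate 2 minus replicate 1) and Gzmc (-1.29 ± 0.39) far more than in Gzmb (-0.39), Srgn (-0.33) and Prf1 (-0.18).

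**Figure D3:**
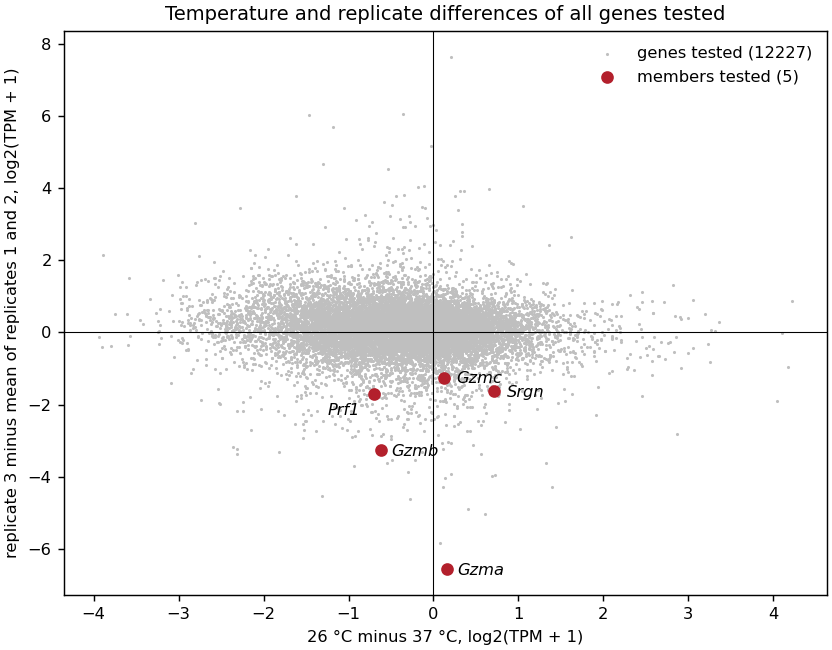
Each grey point is 1 of 12227 tested genes, placed by its difference 26 °C minus 37 °C (horizontal axis) and its difference replicate 3 minus the mean of replicates 1 and 2 (vertical axis), both on the log2(TPM + 1) scale. The 5 red points are the members that passed the filter on low values, shown as a description. All 5 lie between -0.70 and 0.72 on the temperature axis and below 0 on the replicate axis, from -1.26 for Gzmc to -6.55 for Gzma.

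The replicate number accounted for most of the variation of each member among the 6 libraries. Its share of the sum of squares on the log2 scale was 99.5% for Gzma, 96.1% for Gzmb, 88.0% for Gzmc, 80.2% for Prf1 and 79.3% for Srgn, against a median of 31.5% over all tested genes. The share of temperature was 0.051% for Gzma, 3.88% for Gzmb, 0.513% for Gzmc, 15.3% for Prf1 and 16.8% for Srgn, against a median of 44.7%. These shares use the values that chose the members and are given as a description.

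The genes most alike in pattern were sought for Gzmb, Prf1 and Srgn among 5094 other genes, by Pearson's r of log2(TPM + 1) over the 6 libraries. For Gzmb they were Sgce (r = 0.997), a sarcoglycan, Ctbs (r = 0.993), a lysosomal chitobiase, and Slc50a1 (r = 0.991), a sugar transporter. Sgce was at 37.4 TPM in replicate 1 and 1.20 TPM in replicate 3 at 37 °C, and at 18.5 and 0.302 TPM at 26 °C. For Prf1 they were Eva1b (r = 0.987), Cenpb (r = 0.985), a centromere protein, and Nectin3 (r = 0.985), an adhesion molecule. For Srgn they were Parp6 (r = 0.988), Usp22 (r = 0.988), a deubiquitinase, and Gbp6 (r = 0.987), an interferon-inducible GTPase with 42.6 to 245 TPM. These are the highest of many correlations over only 6 points that share their libraries, and they carry no p.

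Other genes of the granule pathway were taken from 5 lists of 110 names, of which 109 matched a gene and 81 were tested. Of these 81 genes, 0 were called up and 8 down at 26 °C, with a median log2 difference of -0.21 beside -0.34 for all genes. The 8 are 9.88% of the 81, below the 16.0% of all tested genes called down, and the 0 called up stand beside 2.63% of all genes. In replicate 3, 3 were called higher and 6 lower, or 3.70% and 7.41% beside 3.14% and 2.94% of all genes, with a median of -0.055 beside 0.10 for all genes. With no filter on low values both the 3 higher and the 6 lower calls were lost, and so were the temperature calls of Rab27a, Stat5b, Rbpj and Stat4. After median of ratios scaling the temperature calls were 4 up and 5 down, and with the replicate block 1 up and 11 down. All adjusted p-values that follow are from limma over the 12227 genes.

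Among the other granzymes and the neighbours in the cluster, 6 of 10 genes had any read and only Gzmm was tested. Gzmm, a granzyme encoded outside both clusters, was at 1.09, 1.07 and 1.75 TPM at 37 °C and at 1.33, 8.15 and 5.46 TPM at 26 °C. Its log2 difference of 1.18 ± 0.51 (SE) was not called (adjusted p = 0.135, limma), and the 1.33 TPM of replicate 1 lay within the 37 °C range. The mast cell proteases Mcpt2, Mcpt4, Mcpt8, Cma1 and Cma2 had at most 7 reads in a library. Gzmn, Ctsg, Mcpt1 and Mcpt9 had none.

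Of the 11 tested genes that process, restrain and sort granzymes, 0 were called between temperatures, beside 18.6% of all tested genes. In replicate 3, 3 were called lower and 8 were not called, beside 2.94% of all tested genes lower and 3.14% higher. The median log2 difference in replicate 3 was -0.44, beside 0.10 for all genes. Ctsc, the cathepsin that removes the propeptide of granzymes, was at 153, 193 and 56.0 TPM at 37 °C and at 134, 150 and 71.7 TPM at 26 °C, lower in replicate 3 by a log2 difference of -1.29 ± 0.23 (SE, adjusted p = 0.0272, limma). Cst7, which encodes cystatin F, an inhibitor of Ctsc and other cathepsins, was lower in replicate 3 as well (-1.51 ± 0.22, adjusted p = 0.0155, limma), at 618 and 677 TPM against 1436 to 2782 TPM in the other libraries. Ctsh, a further cathepsin linked to granzyme processing, was at 85.5 and 69.0 TPM in replicate 1 and at 4.93 to 17.3 TPM in replicates 2 and 3 (replicate 3 difference -2.29 ± 0.29, adjusted p = 0.0102, limma). Ctsc and Cst7 were thus both lowest in the libraries of replicate 3, while Ctsh was low in replicate 2 as well. Any link to the levels of the members was not tested. Ctsc lost its call without any 1 of 5 libraries, and Cst7 without replicate 1 of the 37 °C group. Serpinb9, the granzyme B inhibitor that protects the killer cell itself, was at 9.03 to 20.2 TPM and was called in neither comparison (adjusted p = 0.27 for temperature and 0.271 for replicate 3, limma).

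The enzymes that build the glycosaminoglycan chains of serglycin were called once without the replicate block. Of 13 tested, 1 was called down at 26 °C, beside 16.0% of all tested genes, and 0 were called in replicate 3, beside 6.08%. The median log2 difference at 26 °C was -0.41, beside -0.34 for all genes. With the replicate block 2 were called down, beside 21.9% of all tested genes. Chst12, a chondroitin 4-O-sulfotransferase, was at 34.2, 48.4 and 45.1 TPM at 37 °C and at 15.1, 11.4 and 20.1 TPM at 26 °C, without overlap (-1.42 ± 0.28, SE, adjusted p = 0.0167, limma). Its call was lost without replicate 2 of the 37 °C group and without replicate 1 or 2 of the 26 °C group.

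Of the 29 tested genes of granule transport and exocytosis, 3 fell at 26 °C and 0 rose, with a median log2 difference of -0.24. That share of falls was below the 16.0% of all tested genes, and the median was above the -0.34 of all genes. Rab27a, the small GTPase that docks granules at the plasma membrane, was at 49.5, 42.4 and 40.9 TPM at 37 °C and at 12.1, 7.36 and 22.4 TPM at 26 °C (-1.72 ± 0.38, SE, adjusted p = 0.0216, limma). Unc13d, which encodes Munc13-4, the priming factor that acts with Rab27a, was at 65.3, 54.9 and 64.0 TPM and at 26.8, 21.9 and 37.4 TPM (-1.10 ± 0.26, adjusted p = 0.0261, limma). Hps4, a subunit of a complex that forms lysosome-related organelles, was at 16.3, 20.3 and 21.2 TPM and at 6.18, 5.67 and 7.78 TPM (-1.43 ± 0.25, adjusted p = 0.0121, limma). In none of the 3 genes did the groups overlap, as in the 31.4% of all tested genes that were lower at 26 °C throughout. The call of Rab27a was lost without replicate 1 or 2 of either temperature, that of Hps4 without replicate 2 of the 37 °C group or replicate 1 or 2 of the 26 °C group, and that of Unc13d without any 1 of 5 libraries, after median of ratios scaling (log2 difference -0.70) and with voom on the recovered reads. Lamp1, a membrane protein of granules that marks degranulation, was at 439 to 731 TPM and was not called (0.29 ± 0.23, adjusted p = 0.401, limma).

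In replicate 3, 2 of these 29 genes were called higher and 1 lower, beside 3.14% and 2.94% of all tested genes. Nkg7, a granule membrane protein of killer cells, was at 44.7, 2.1 and 215 TPM at 37 °C and at 58.7, 3.69 and 206 TPM at 26 °C, with a log2 difference of 3.91 ± 0.24 in replicate 3 (SE, adjusted p = 0.00129, limma). Nkg7 was thus highest in the libraries in which Gzma, Gzmb, Prf1 and Srgn were lowest, and lowest in replicate 2. Was, an actin regulator, was higher in replicate 3 too (1.86 ± 0.22, adjusted p = 0.00912, limma), at 223 and 172 TPM against 35.0 to 75.6 TPM. Lyst, which governs lysosome and granule size, was lower there (-2.04 ± 0.29, adjusted p = 0.0138, limma), at 4.12 and 2.57 TPM against 14.6 to 19.1 TPM. The call of Lyst was lost without replicate 1 of the 37 °C group and without replicate 1 or 2 of the 26 °C group.

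Of the 27 tested regulators of cytotoxic genes, 4 were called down at 26 °C and 0 up, beside 16.0% and 2.63% of all tested genes. The share called down was close to that of all genes. The median log2 difference was -0.015, beside -0.34 for all genes. After median of ratios scaling 2 were called down and 2 up. Il2ra, the high-affinity IL-2 receptor chain, was at 1360, 1674 and 2026 TPM at 37 °C and at 327, 217 and 313 TPM at 26 °C (-2.56 ± 0.27, SE, adjusted p = 0.00673, limma), and its call held under all 12 alternatives. Il2rb, the chain that IL-2 and IL-15 receptors share, was at 202 to 433 TPM and was not called (0.09 ± 0.36, adjusted p = 0.887, limma). Stat5b, a signal transducer of these receptors, fell by 1.66 on the log2 scale (SE 0.37, adjusted p = 0.0223, limma), from 44.0, 49.6 and 51.1 TPM to 10.9, 10.5 and 26.9 TPM. Stat4, a transducer of IL-12 signals, fell by 1.10 (SE 0.32, adjusted p = 0.0493, limma), and Rbpj, the nuclear partner of Notch, fell by 1.08 (SE 0.28, adjusted p = 0.0345, limma). The calls of Stat4 and Rbpj were also lost without any 1 of 5 libraries, with voom and after median of ratios scaling, where their log2 differences were -0.69 and -0.68, and that of Stat4 with a pseudocount of 0.1. Stat5b lost its call without replicate 1 or 2 of either temperature.

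The factors that drive granzyme and perforin genes in killer cells were unevenly present. Runx3, whose family binds the Runx letters printed above, was at 118 to 198 TPM in all libraries and was called in neither comparison (adjusted p = 0.41 for temperature and 0.792 for replicate 3, limma). Tbx21, which encodes T-bet, had 1 read in 1 library, and Eomes, its relative, was at 0.0904 to 0.751 TPM, from 3 to 19 reads. Prdm1, which encodes Blimp-1, was called lower in replicate 3 (-1.88 ± 0.30, SE, adjusted p = 0.0186, limma), at 0.846 and 0.912 TPM against 4.13 to 9.49 TPM, and its call was lost without replicate 1 or 2 of the 37 °C group and without replicate 1 of the 26 °C group. Jun, an AP-1 subunit, was called lower in replicate 3 with an adjusted p at the threshold (-1.25 ± 0.28, adjusted p = 0.0496, limma), and the call was lost without any 1 of 5 libraries and after median of ratios scaling. Id3, an inhibitor of E proteins, was called higher in replicate 3 (2.65 ± 0.49, adjusted p = 0.0302, limma), at 85.7 and 94.4 TPM against 3.96 to 33.5 TPM, a call lost without the same libraries as that of Prdm1. With the replicate block Id3 was also called higher at 26 °C (adjusted p = 0.0349, limma).

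**Figure D4:**
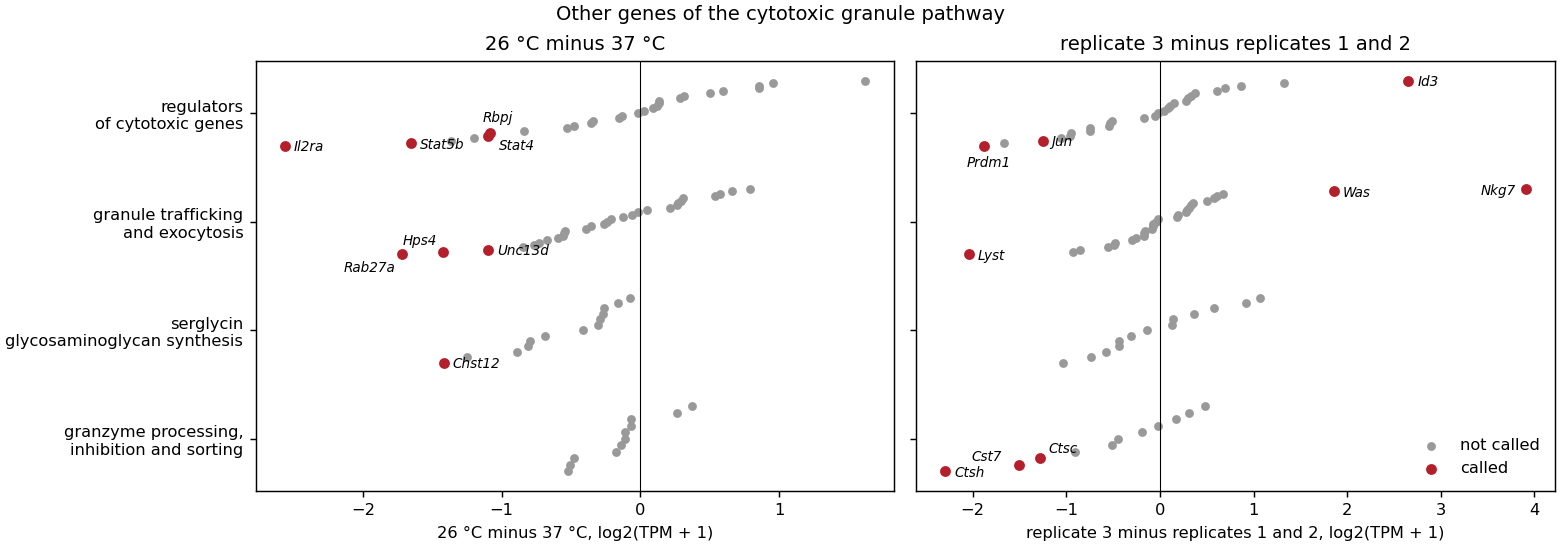
Each point is a tested gene of 1 of 4 lists of the granule pathway, placed by its log2(TPM + 1) difference between temperatures (left panel) or between replicate 3 and replicates 1 and 2 (right panel), with called genes in red and named. Vertical positions within a list only order the genes. Of the called genes, all 8 in the left panel are below 0, down to -2.56 for Il2ra, and in the right panel 6 are below 0 and 3 above, up to 3.91 for Nkg7.

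The defining markers of CD8+ T cells and natural killer cells were at or near 0, while other genes of the cytotoxic list were expressed. Of 19 cytotoxic lymphocyte markers 13 had any read and 7 were tested, and their summed level was 107, 92.2 and 46.9 TPM at 37 °C and 52.1, 37.7 and 49.6 TPM at 26 °C. Cd8a, the natural killer receptor gene Ncr1 and the cytokine gene Ifng were at 0 in all 6 libraries, Klrd1 had 1 read, and Fasl was at 0 to 0.597 TPM. The chemokine gene Ccl5, at 10.4 to 51.3 TPM, and the death ligand gene Tnfsf10, at 11.7 to 38.8 TPM, made up most of the sum. None of the 7 was called between temperatures, beside 18.6% of all tested genes. Klrk1, the receptor NKG2D, was called lower in replicate 3 (-2.16 ± 0.42, SE, adjusted p = 0.035, limma), beside 2.94% of all tested genes. The Klrk1 call was lost with no filter on low values and without replicate 1 or 2 of the 37 °C group. It was also lost without replicate 1 of the 26 °C group. Of 19 T helper cell markers 18 were tested, and 0 were called between temperatures, beside 18.6% of all tested genes. In replicate 3, 7 were called higher and 1 lower, beside 3.14% and 2.94% of all tested genes. Cd4 was among the higher ones (7.63 ± 0.24, SE, adjusted p = 0.000186, limma). Of these calls, only that of Cd4 held under all 10 alternatives. The summed level of the 19 markers was 5469, 3593 and 5169 TPM at 37 °C and 6853, 4690 and 4870 TPM at 26 °C.

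Other cell types were checked in the same way. The B cell markers summed to at most 1.11 TPM, and none of them passed the filter on low values. Macrophage and monocyte markers summed to 2.87, 5.20 and 16.0 TPM at 37 °C and to 3.55, 2.90 and 21.5 TPM at 26 °C, with Csf1r at 1 read. Of 2 tested genes, Lyz2 was called higher in replicate 3 (2.99 ± 0.28, SE, adjusted p = 0.00424, limma), beside 3.14% of all tested genes. The call of Lyz2 was lost with no filter on low values. Mast cell and basophil markers summed to 28.2, 12.1 and 9.16 TPM at 37 °C and to 28.0, 21.3 and 11.9 TPM at 26 °C, with 0 of 1 tested gene called. Kit was at 0 in all libraries, while Cpa3 was at 2.46 and 2.19 TPM in replicate 1 and at 0 elsewhere, the replicate in which Gzma was highest. The part of these marker differences in the granzyme levels was not tested. Extraction batch and culture history cannot be told apart from the replicate number with the labels given. The medium is named differently by the labels and by the study's methods, but as the same for both groups.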

How the data were processed

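Gene expression in D10 T cells was measured by RNA sequencing in 3 non-acclimated libraries (24 h at 37 °C) and 3 cold-acclimated libraries (24 h at 26 °C), grouped by their labels. The authors made strand-specific libraries from poly(A)+ RNA, sequenced 150-base read pairs, trimmed them with Trimmomatic 0.38 after checking with FastQC 0.11.7, aligned them to GRCm39 with HISAT2 2.1.0 and counted reads per gene with featureCounts 1.6.3 (versions from the submitters' processing notes). They deposited TPM values, 1 column per library. No source used here gives the annotation release, gene lengths or strand setting of the counting, so reads of antisense partners may be included.

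Genes with a mean of at least 1 TPM were fitted with limma 3.58.1 (R 4.3.3, mean-variance trend) on log2(TPM + 1). The temperature fit had no covariate, and the replicate fit had temperature and replicate number as terms. Calls required a Benjamini-Hochberg adjusted p under 0.05 over all tested genes and a log2 difference of at least 1. Because the file holds TPM, limma took the place of the count test used by the study. The members were fitted with all genes, and their values and counts past the thresholds are given as a description, not as a test. Whole reads were recovered from the TPM steps (whole within 1e-06 reads for 18461 genes above 0 in 2 or more libraries), which rests on the smallest common step and could be a divisor of the true count, above all for the 2734 genes above 0 in 1 library. Depth was 16899628 to 31290817 recovered reads per library, and limits on zero counts cover counting error only.

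The labels do not say what same-numbered libraries share. Their deviations from the group means correlated at 0.48, 0.50 and 0.51, so replicate numbers were taken to pair the libraries, and a fit with the replicate number as a block was run beside the unpaired one. P-values measure the spread between these libraries of a single cell line.

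The members and lists were chosen with earlier results of these data known. Named were all members, the cluster genes with reads, in each pathway list the called genes (the 3 largest in each direction) plus 12 fixed genes, 11 marker genes (1 is not reported here), and for Gzmb, Prf1 and Srgn the 3 genes with the highest correlation among those with a mean of at least 5 TPM and an SD of at least 0.5. Klrk1, Ccl5, Tnfsf10, Lyz2, Kif5b and Vamp2 were named after their values were seen. The lists covered other granzymes and cluster neighbours, granzyme processing, glycosaminoglycan synthesis, granule transport and regulators (81 tested genes in all), and markers of cytotoxic lymphocytes, T helper cells, B cells, macrophages and mast cells. Zfp683 matched no symbol. Upstream windows were cut from GRCm39 at the starts given in the deposited table, and 7 of the 10 equal the RefSeq windows. Identity was counted over the longer of a global alignment's sequences. Alternatives were a pseudocount of 0.1, no filter on low values, median of ratios scaling, limma voom on the recovered reads, the replicate block, each library left out and both libraries of replicate 3 left out. Scripts used Python 3.11.15, numpy 2.4.6, pandas 2.3.3, scipy 1.17.1 and matplotlib 3.10.9, and the fits were tested on simulated data. Apart from genes set to change in replicate 3, the simulated libraries of the same replicate number shared no deviation. The simulation therefore does not cover the pairing seen in these libraries.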

Additional observations from a re-analysis of the deposited data

How the results depend on the processing

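For the members, the temperature difference of Prf1 stayed below 0 and that of Srgn above 0 under all 12 alternatives, with ranges of -1.16 to -0.032 and 0.075 to 1.18 on the log2 scale. The other 3 changed sign. Gzma (0.15) ranged from -2.16 without the 37 °C library of replicate 3 to 2.27 without that of replicate 1, was -1.66 and -0.083 without the 26 °C libraries of replicates 1 and 2, and was -0.10 without both libraries of replicate 3. Gzmb (-0.62) ranged from -1.73 to 0.44 when a library was left out, and turned positive without the 37 °C library of replicate 1 (0.038) and without the 26 °C library of replicate 3 (0.44). Gzmc (0.12) ranged from -0.37 to 0.85, with -0.12 and -0.37 without the 37 °C libraries of replicates 2 and 3, -0.21 without the 26 °C library of replicate 1 and -0.011 without both libraries of replicate 3. The cause of these sign changes was not tested. The difference of replicate 3 stayed below 0 for all 5 members under all 10 alternatives. With no filter on low values, though, none of the 5 was past the thresholds for a call. For Gzmb (-3.26) the difference was -3.36 after median of ratios scaling, -3.34 with voom and -3.33 to -3.19 with a library left out.

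Counts over all genes moved more. With no filter on low values, which adds many genes near 0, the temperature calls were 184 up and 1121 down (321 and 1954 with the filter), the calls in replicate 3 were 2 higher and 1 lower (384 and 359), and the test over the 3 replicate numbers called 0 genes (442). Median of ratios scaling gave 840 up and 1052 down, and leaving out both libraries of replicate 3 gave 653 up and 3088 down. Voom gave 618 genes lower in replicate 3 and 800 over the replicate numbers. With 1 library left out, the counts ranged from 59 to 459 up, 345 to 2725 down, 76 to 1584 higher in replicate 3, 107 to 904 lower in replicate 3 and 171 to 3651 over the replicate numbers.

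Of the 81 pathway genes, 0 were called up at 26 °C, but 4 after median of ratios scaling, 1 with voom, 1 with the replicate block and 4 without both libraries of replicate 3, and 0 to 3 with a library left out. The 8 called down became 4 with no filter, 5 after median of ratios scaling, 5 with voom and 1 to 12 with a library left out. The 3 higher in replicate 3 became 0 with no filter and 2 to 8 with a library left out. The 6 lower became 0 with no filter, 12 with voom and 1 to 10 with a library left out. With the replicate block the counts over all genes were 458 up and 2679 down.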
